A study of Mus musculus with 2 samples.

Results

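Lineage regulator genes encode the transcription factors that direct an embryonic cell towards endoderm, mesoderm, the nervous system or a position along the body axis. The group described here holds 30 such genes of 21887 protein-coding mouse genes, taken from a list of gene names. No measured value entered the rule, but the list was drawn up with earlier results of these data known. A called cytosine was counted for a gene when it lay between the RefSeq start and end of that gene in GRCm38, the build also called mm10, or within 2 kb on either side. By that rule 41 of the 46677 distinct cytosines called in the series belonged to the group. In embryonic stem cells many genes of this kind are known as bivalent, carrying an activating and a repressive histone mark at the same promoter while their expression stays low. Histone marks and expression were not analysed here, so the word bivalent could not be checked and the genes are called lineage regulators below. 5-formylcytosine (5fC) is made by TET enzymes from 5-methylcytosine by way of 5-hydroxymethylcytosine, and is removed by the glycosylase TDG followed by base excision repair.

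The data came from mouse embryonic stem cells (mESCs). The sample titles name no treatment, and no label gave a strain, clone or genotype. There were 2 libraries in 1 group, labelled replicates 1 and 2, with no control library among the samples. In CLED-seq, formyl groups are labelled with biotin and the labelled DNA is pulled down on beads. The deaminase A3A then changes cytosine that carries no label, and a position that keeps its C in the reads is a candidate for 5fC. The level of a site is the percentage of its reads that kept the C, which is a share of captured fragments and not of genomic copies.

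The libraries listed 28569 and 29650 called cytosines, with a median depth of 34 reads in both and at least 30 reads at each. At the members the median depth was 34 reads in replicate 1 and 36 in replicate 2. The files list called sites only, so a cytosine with no call may have been unmodified, too thinly covered or not captured, and these cases cannot be told apart. Across the series 11542 of the 46677 distinct cytosines were called in both libraries (24.7%), and the rest were listed in 1 library only. Of the 11542 sites called in both, 8147 had identical counts (70.6%). At such shared sites the libraries thus differed by less than sampling noise and were counted as 1 sample. At the members the same was seen at 8 of 11 such sites (72.7%). Agreement between replicates is therefore not independent evidence of a level, and 95% Wilson intervals cover counting error only.

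At least 1 called cytosine was found at 16 of the 30 lineage regulators (53.3%), against 47.9% of protein-coding genes. In replicate 1 it was 14 of 30 (46.7%), against 39.4% of protein-coding genes, and in replicate 2 it was 12 of 30 (40%), against 40.3%. A cytosine called in both libraries lay at 9 of 30 (30.0%), against 22.2% of protein-coding genes. These shares are not matched for gene length, whose median was 6.42 kb in the group and 17.2 kb over protein-coding genes. Nothing about the group is read from them, and shares by length are given further below. The group held 27 called cytosines in replicate 1 and 25 in replicate 2, of which 11 were the same cytosine. These 11 were 26.8% of its 41 distinct cytosines, against 24.9% over protein-coding genes and 24.7% over all calls. A call in a single library was thus the usual case throughout the series. The calls were spread unevenly. Pax7, which specifies neural tube, neural crest and muscle progenitors, held 12 of the 41 (29.3%). Together with the endoderm and heart factor gene Gata4 and the heart and forelimb factor gene Tbx5 it held 24 (58.5%). Another 9 genes held a single called cytosine each. No call was found at 14 genes: Gata6, Sox17, Eomes and Mixl1 of the endoderm and mesendoderm group, Isl1, Hand1 and Msx1 of the mesoderm group, Pax6, Nkx2-2, Olig2, Neurog2, Otx2 and Dlx5 of the neural group, and Hoxb13.

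**Figure D1:**
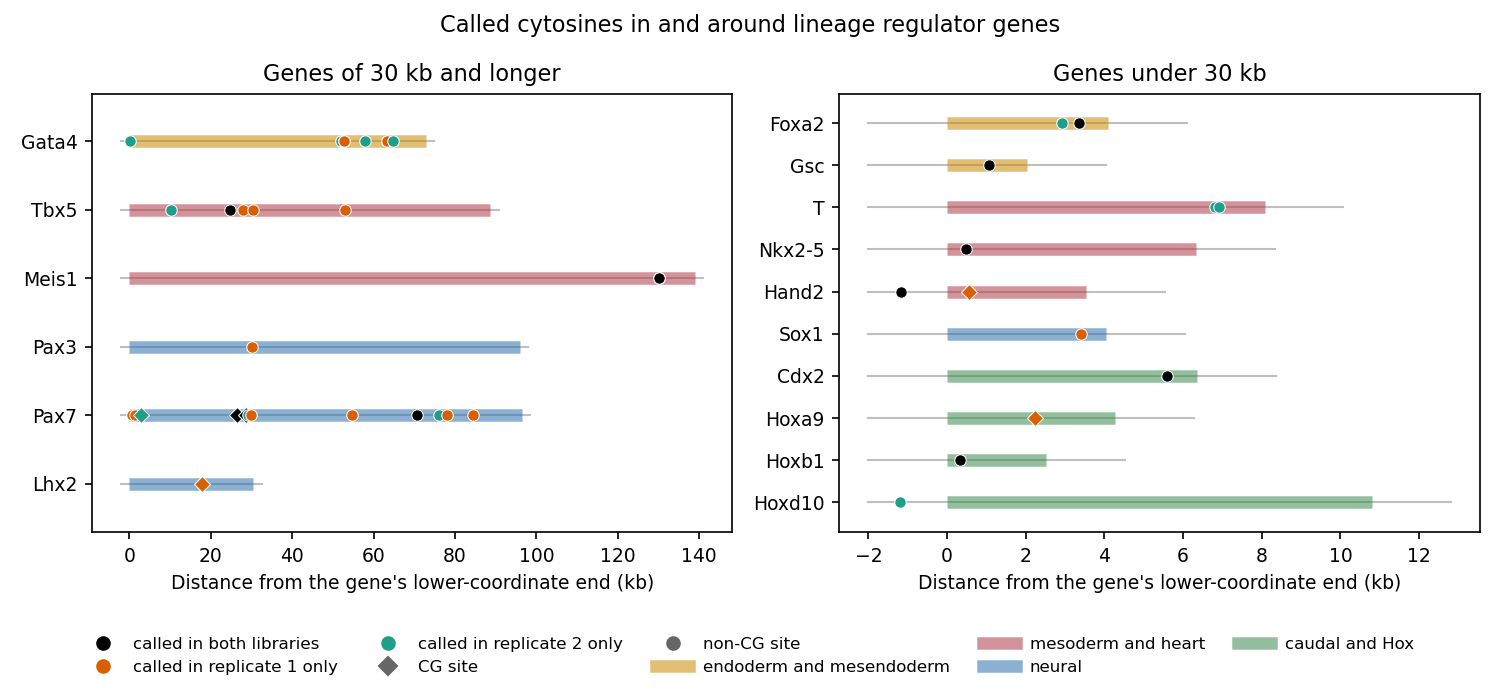
Positions of the 41 called cytosines at the 16 lineage regulators that held any, in kb from the end of the gene with the lower coordinate. Thick bars are genes coloured by lineage, thin lines the 2 kb flanks, diamonds CG and circles non-CG sites, and point colour shows the library. Calls lay inside the gene at 39 of 41 sites, and only the Hand2 and Hoxd10 rows show a point in a flank. Most of the span searched lies inside the genes, so no preference of position is read from this.

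Start sites were looked at first, since promoters are where these genes are known to carry both histone marks. RefSeq promoter sequences, which run from 250 bp before a start to 50 bp after it, were at hand for 21 of the 30 genes, in 28 windows. A called cytosine fell in 0 of the 28 windows, while 898 of 32851 windows of all genes held a call (2.73%). At that share 28 windows would hold fewer than 1 with a call, so nothing is read from the 0. The windows of the lineage regulators held a median of 17 CG dinucleotides, from 4 in Hoxa9 to 37 in Isl1 and Sox1, against a median of 7 over all windows. The ratio of observed to expected CG was 0.715 in the median member window and 0.384 over all. This high CG content was a property of the reference sequence and not a measurement of modification.

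Outside those windows, 6 of the 28 called cytosines at genes with a known start lay within 1 kb of it (21.4%). Over all protein-coding genes with a known start the share was 14.3% of 21820 pairs of a site and a gene. The difference was not tested. Of the 6, 4 were called in both libraries, at Foxa2, Gsc, Cdx2 and Hoxb1. The promoters of these 4 genes are shown to place the calls beside their CG content. Each sequence gives the 250 bases before the outermost annotated start (RefSeq, GRCm38.p6), 5′ to 3′ on the strand of the gene, with every CG in capitals.
Foxa2, chr2:148046970-148047219, minus strand: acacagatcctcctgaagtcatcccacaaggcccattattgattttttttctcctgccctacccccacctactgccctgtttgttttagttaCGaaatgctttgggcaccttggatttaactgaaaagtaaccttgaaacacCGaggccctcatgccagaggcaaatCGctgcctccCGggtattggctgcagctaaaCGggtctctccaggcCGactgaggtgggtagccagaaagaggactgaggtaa
Gsc, chr12:104473237-104473486, minus strand: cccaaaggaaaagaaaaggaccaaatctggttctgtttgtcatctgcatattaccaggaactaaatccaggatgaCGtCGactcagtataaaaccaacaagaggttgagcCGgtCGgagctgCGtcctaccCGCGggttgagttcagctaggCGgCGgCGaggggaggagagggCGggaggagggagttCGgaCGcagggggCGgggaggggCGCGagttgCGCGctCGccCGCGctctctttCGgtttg
Cdx2, chr5:147307250-147307499, minus strand: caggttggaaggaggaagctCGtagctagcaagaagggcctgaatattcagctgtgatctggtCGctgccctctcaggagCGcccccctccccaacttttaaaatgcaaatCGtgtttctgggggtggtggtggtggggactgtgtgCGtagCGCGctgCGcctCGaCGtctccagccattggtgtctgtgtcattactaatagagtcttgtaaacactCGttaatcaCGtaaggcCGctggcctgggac
Hoxb1, chr11:96365508-96365757, plus strand: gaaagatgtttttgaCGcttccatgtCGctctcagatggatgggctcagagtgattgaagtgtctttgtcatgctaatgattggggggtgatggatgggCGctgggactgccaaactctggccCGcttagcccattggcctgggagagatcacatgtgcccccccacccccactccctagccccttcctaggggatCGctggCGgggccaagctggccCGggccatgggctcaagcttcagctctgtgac

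These stretches differed in CG content, from 6 CG in Foxa2 and 7 in Hoxb1 to 13 in Cdx2 and 22 in Gsc. Of all windows, 50.4% held as many CG in the same 250 bases as Foxa2, and 14.8% as many as Gsc. For Foxa2 the stretch shown is that of the outermost start, while the middle start lay nearer to the shared call. The full promoter window of that middle start held 23 CG, against 12 in the full window of the outermost start. The low count of Foxa2 is thus not that of the promoter nearest to its call. The called cytosine of each gene lay downstream of the stretch shown, by 749 bp in Foxa2, 956 bp in Gsc, 770 bp in Cdx2 and 315 bp in Hoxb1, counted from the outermost start. None of these 4 cytosines was a CG. The remaining calls within 1 kb were made in 1 library each. They were a CG of Hand2, 557 bp past the start, and a second cytosine of Foxa2, 158 bp past an internal start.

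Among the endoderm and mesendoderm regulators, 3 of 7 genes held 10 called cytosines, and 0 of the 10 was a CG (Wilson interval 0 to 27.8%). Gata4, which encodes a zinc finger factor of extraembryonic endoderm and heart, lies on chromosome 14 from 63198914 to 63271712 and held 7 calls, all inside the gene. Of these, 2 were called in replicate 1 alone and 5 in replicate 2 alone, so no cytosine of Gata4 was called in both. In replicate 1 the levels were 32.3% at position 63251643 (10 of 31 reads, interval 18.6 to 49.9) and 93.8% at position 63262256 (30 of 32 reads, interval 79.9 to 98.3). The second of these, a CAG site, was the highest level of the whole group. In replicate 2 the levels ran from 34.4% at position 63251544 to 51.4% at position 63199195. The intervals of the replicate 2 sites overlapped, and the 93.8% site stood above them all.

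A pair of Gata4 calls, at 63251544 in replicate 2 and 63251643 in replicate 1, lay 99 bp apart on the plus strand. Their counts were within 1 read of each other, 11 of 32 and 10 of 31. It was the only such pair among the 30 member sites called in a single library, where a partner was sought within 120 bp in the other library. Whether the pair stands for separate modified cytosines was not tested.

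Foxa2, a forkhead factor gene of definitive endoderm, floor plate and node, lies on chromosome 2 from 148042877 to 148046969 and held 2 calls on the gene strand, 430 bp apart. The cytosine at position 148046220 was called in both libraries at 52.4% (22 of 42 reads in each, interval 37.7 to 66.6). The other, a CAG site at position 148045790, was called in replicate 2 at 25.8% (8 of 31 reads, interval 13.7 to 43.2). Foxa2 has 3 annotated starts, and the shared cytosine lay 272 bp upstream of the middle one and 749 bp downstream of the outermost. Gsc, whose homeodomain protein marks the organizer and prechordal mesoderm, lies on chromosome 12 from 104471209 to 104473236. It held a CTG site at position 104472280, at 23.3% in both libraries (7 of 30 reads in each, interval 11.8 to 40.9). That site had the lowest depth the files list and was among the lowest levels of the group. The gene of the T-box factor Eomes, the gene of the HMG-box factor Sox17, Gata6 and Mixl1 held no call, with the nearest call 8.19 kb from Eomes, 10.6 kb from Mixl1, 12.5 kb from Sox17 and 23.7 kb from Gata6.

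**Figure D2:**
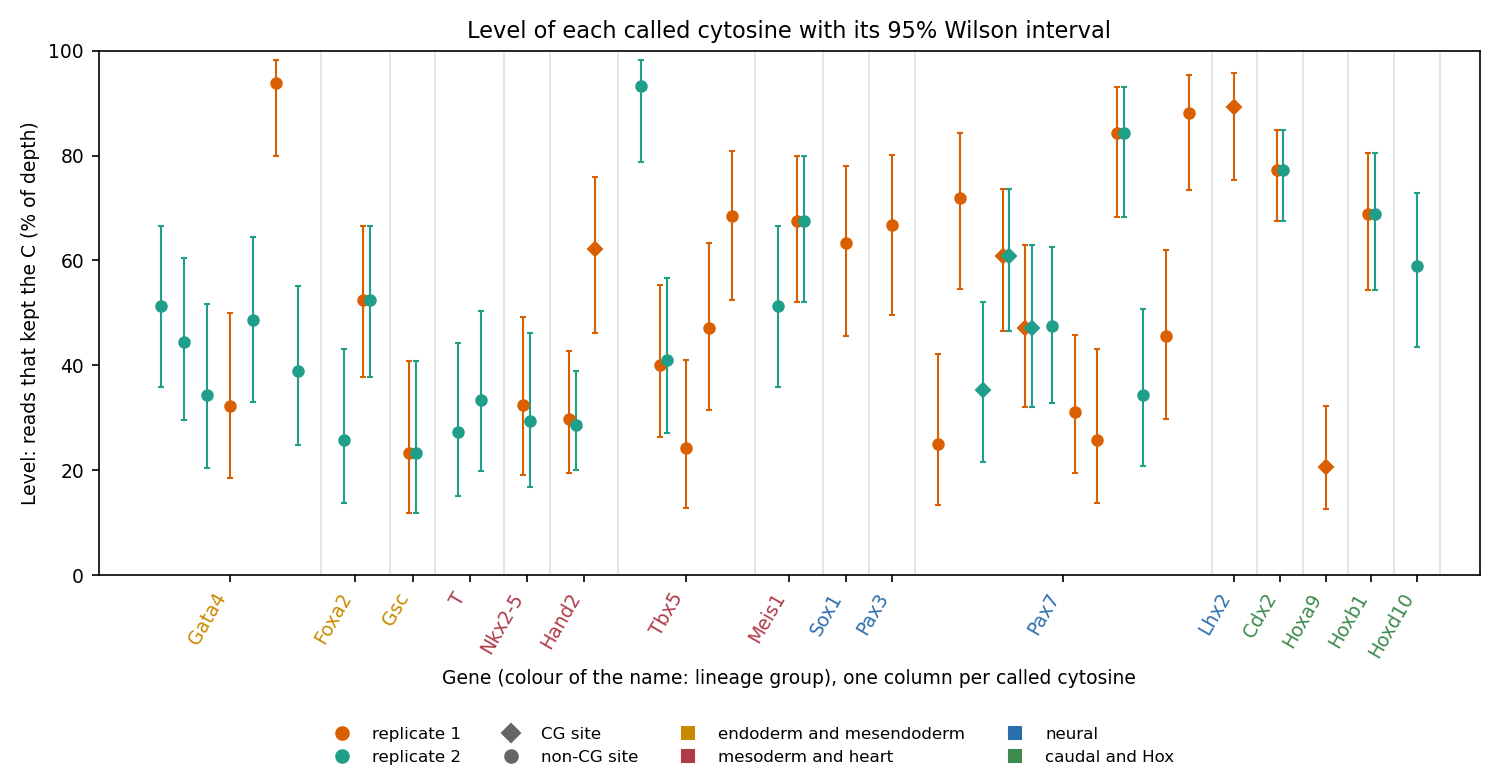
Level of each called cytosine, as the percentage of reads that kept the C, in each library that listed it. Bars are 95% Wilson intervals, diamonds mark CG sites, and gene names are coloured by lineage. Gata4 and Tbx5 each show a point above 90%, at 93.8% and 93.3%, and the paired points of shared sites nearly coincide.

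Among the mesoderm and heart regulators, 5 of 8 genes held 12 called cytosines, of which 1 was a CG. Tbx5 lies on chromosome 5 from 119796514 to 119885220 and held 5 calls, 4 of them in replicate 1 and 2 in replicate 2. The shared site at position 119821200 stood at 40% in replicate 1 (16 of 40 reads) and 41.0% in replicate 2 (16 of 39 reads). In replicate 1 the other sites stood at 24.2%, 47.1% and 68.4%, and in replicate 2 the other site, at position 119806646, stood at 93.3% (28 of 30 reads, interval 78.7 to 98.2). The levels at Tbx5 thus covered nearly the whole range seen in the group. The noncoding RNA gene Gm5563 overlaps Tbx5 at 4 of the 5 sites, and the calls cannot be assigned to either of the genes alone.

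Meis1 encodes a homeodomain cofactor of Hox proteins and is the longest gene of the group, on chromosome 11 from 18880428 to 19019651. It held only 2 calls, 44 bp apart on opposite strands, 8455 and 8499 bp into the gene. The CAG site at position 19010514 stood at 67.5% in both libraries (27 of 40 reads in each, interval 52.0 to 79.9). The site at position 19010470 was called in replicate 2 at 51.4% (19 of 37 reads). Both also lay in the noncoding RNA gene Gm16141.

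Hand2, a basic helix-loop-helix factor gene of heart and limb bud on chromosome 8 (57320983 to 57324517), held the one CG call of the mesoderm group. That CGG site at position 57321540 was called in replicate 1 at 62.2% (23 of 37 reads, interval 46.1 to 75.9). A site in the flank at position 57319824, in the neighbouring noncoding RNA gene Hand2os1, was called in both libraries with more depth. It stood at 29.8% in replicate 1 (17 of 57 reads, interval 19.5 to 42.7) and 28.6% in replicate 2 (24 of 84 reads, interval 20.0 to 39.0). The intervals of these Hand2 sites did not overlap.

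Nkx2-5, a homeobox gene of the early heart field on chromosome 17, held a CCC site at position 26839149 at 32.4% in replicate 1 (11 of 34 reads) and 29.4% in replicate 2 (10 of 34 reads). The gene T encodes brachyury, the T-box factor of primitive streak and notochord. It held 2 calls at 27.3% and 33.3% (9 and 11 of 33 reads), at positions 8441244 and 8441338 of chromosome 17, both in replicate 2 and 94 bp apart on the strand opposite to the gene. Isl1, Hand1 and Msx1 held none, and the nearest call lay 4.50 kb from Isl1, 20.1 kb from Hand1 and 70.7 kb from Msx1.

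Among the neural regulators, 4 of 10 genes held 15 called cytosines, and 12 of the 15 were in Pax7. Without Pax7 the other 9 neural genes held 3 calls, all in replicate 1. Pax7 lies on chromosome 4 from 139737059 to 139833530 on the minus strand. Its calls numbered 9 in replicate 1 and 6 in replicate 2, with 3 shared, and all lay inside the gene. Of 2372 protein-coding genes within 1.5 times its length, 19 held as many called cytosines, itself included, and the median was 2. For Gata4 137 of 2910 genes of like length held as many as its 7, and for Tbx5 390 of 2534 held as many as its 5. These genes were chosen after their counts were seen, and the counts are a description.

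The shared sites of Pax7 had identical counts in both libraries. A CGT site at position 139763508 stood at 60.9% (28 of 46 reads, interval 46.5 to 73.6), and a CGA site at position 139765846, 2338 bp away, at 47.2% (17 of 36 reads, interval 32.0 to 63.0). A CTC site at position 139807681 stood at 84.4% (27 of 32 reads, interval 68.2 to 93.1), above the CGA site with no overlap of intervals. The CG sites were the only CG cytosines of the whole group called in both libraries. A further CG of Pax7, at position 139739906, was called in replicate 2 at 35.3% (12 of 34 reads). All 3 CG calls of Pax7 lay on the strand of the gene, and the nearest to the start was 67122 bp into it.

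The other calls of Pax7 in replicate 1 ran from 25.0% at position 139737774 (8 of 32 reads) to 88.2% at position 139821426 (30 of 34 reads). In replicate 2 the other non-CG calls stood at 47.5% and 34.3%. High and low levels lay side by side. The sites at 139737774 and 139738556, 782 bp apart near the 3′ end, stood at 25.0% and 71.9% in the same library, and their intervals did not overlap (13.3 to 42.1 against 54.6 to 84.4). Another 4 calls lay close together between positions 139763508 and 139766993, at spacings of 2338, 445 and 702 bp, and the call nearest to the start was 11542 bp into the gene.

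The remaining neural calls were made in replicate 1 alone. Lhx2, a LIM homeobox gene of forebrain and eye on chromosome 2 (38339271 to 38369737), held a CGA site at position 38357037 at 89.2% (33 of 37 reads, interval 75.3 to 95.7), the highest level of any CG in the group. Pax3, the paralogue of Pax7 in dorsal neural tube and neural crest, is nearly as long (95.9 against 96.5 kb) and held 1 call, a CCC site at position 78131490 of chromosome 1 at 66.7% (22 of 33 reads, interval 49.6 to 80.2). Sox1, an HMG-box gene of early neuroectoderm, held a CAC site at position 12398912 of chromosome 8 at 63.3% (19 of 30 reads, interval 45.5 to 78.1), inside the overlapping noncoding RNA gene Sox1ot as well. These 3 levels had overlapping intervals. Pax6, Nkx2-2, Olig2, Neurog2, Otx2 and Dlx5, regulators of eye, spinal cord, oligodendrocytes, neurogenesis and forebrain, held no call.

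Among the caudal and Hox genes, 4 of 5 held 1 called cytosine each. Cdx2, a homeobox gene of trophectoderm and hindgut on chromosome 5 (147300900 to 147307249), held the most deeply covered site of the group. This CAT site at position 147306479 stood at 77.3% in both libraries, with 68 of 88 reads in each (interval 67.5 to 84.8). Hoxb1, which patterns the hindbrain, lies on chromosome 11 (96365746 to 96368254) and held a CCA site at position 96366073 at 68.9% in both libraries (31 of 45 reads in each, interval 54.3 to 80.5). Hoxa9, a posterior Hox gene on chromosome 6, held a CGG site at position 52225329, called in replicate 1 at 20.6% (13 of 63 reads, interval 12.5 to 32.2), the lowest level of the group. The call counted for Hoxd10, a limb and posterior axis gene, lay 1195 bp outside it, at position 74683078 of chromosome 2, inside its neighbour Hoxd11. It was made in replicate 2 at 59.0% (23 of 39 reads, interval 43.4 to 72.9). Hoxb13 held no call, and the nearest lay 21.7 kb away.

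At the 11 cytosines of the group called in both libraries, 0 differed between them by a two-sided Fisher's exact test, adjusted by Benjamini-Hochberg over the 11542 shared sites. All 11 had an unadjusted p and an adjusted p of 1.00 (Fisher's exact test), and 0 had an unadjusted p under 0.05. Over all shared sites 3 were called different (0.0260%). The test assumes independent counts, and the counts of the libraries were alike beyond sampling noise, so it says little about the agreement of separate cultures.

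The lineages were then set side by side. Called cytosines per 100 kb of gene and flanks were 6.31 in the endoderm and mesendoderm group, 4.04 in the mesoderm group, 4.46 in the neural group and 8.65 in the caudal and Hox group, over 158, 297, 336 and 46.3 kb. The order did not hold between libraries. In replicate 1 the endoderm group had 2.52 and the neural group 3.57 per 100 kb, while in replicate 2 they had 5.05 and 1.78. Mesoderm regulators had 2.70 and the caudal group 6.48 in each library. Leaving Pax7 out took the neural density to 1.27, and counting Pax3 and Pax7 as mesoderm, for their part in muscle, took it to 1.47. No difference between lineages is therefore read from the density. For all 30 genes it was 4.89 per 100 kb, against 2.39 over all protein-coding genes and their flanks (3.22 and 2.98 in the replicates, against 1.46 and 1.52). With Pax7 left out it was 3.93. Coverage of these genes is not known, the comparison is not matched for gene length, and the difference was not tested.

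**Figure D3:**
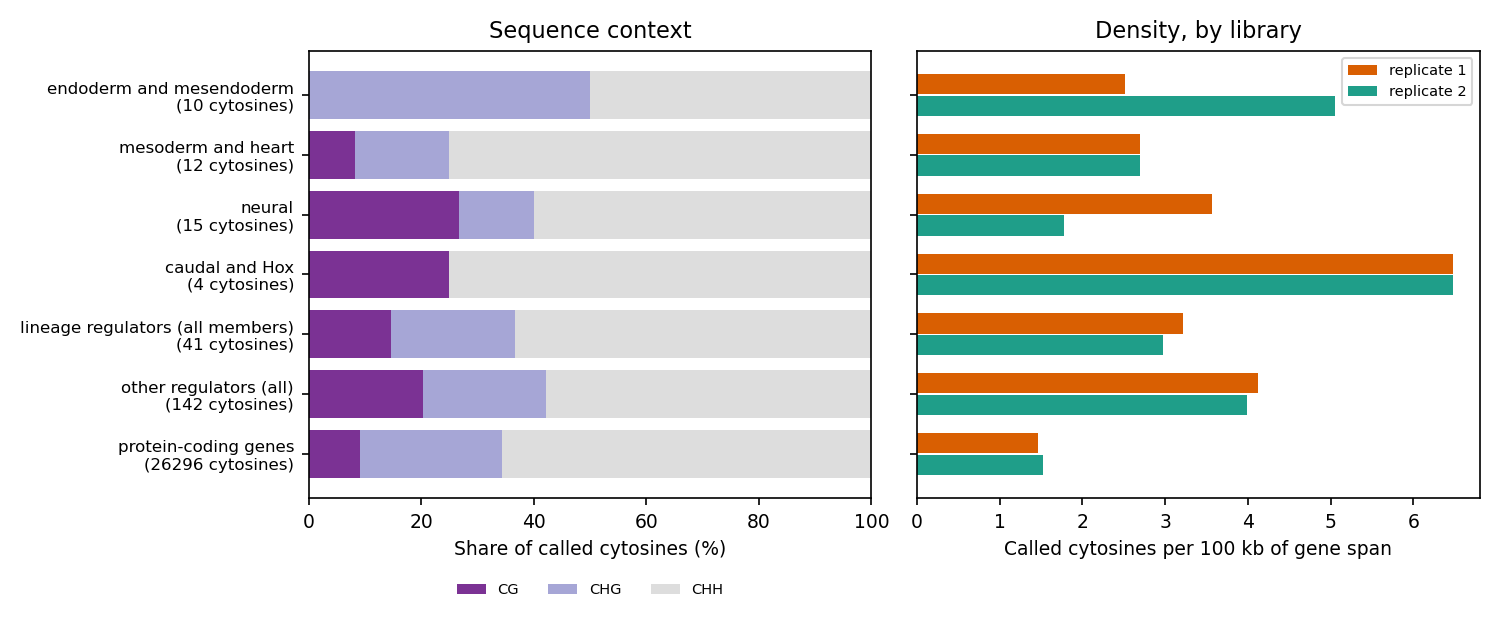
Left, share of called cytosines in CG, CHG and CHH context (H is A, C or T) for each lineage, for all members, for 110 other regulators and for all protein-coding genes. Right, called cytosines per 100 kb of gene and flanks in replicates 1 and 2, where the order of the endoderm bars (2.52 and 5.05) and the neural bars (3.57 and 1.78) is turned between libraries.

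In sequence context, 6 of the 41 calls were CG (14.6%, Wilson interval 6.88 to 28.4), 9 were CHG (22.0%) and 26 were CHH (63.4%). Over protein-coding genes and their flanks the shares were 9.06%, 25.3% and 65.7%, all inside the intervals of the group. By gene, 4 of 30 held a CG call (13.3%), against 10.0% of protein-coding genes. By lineage the CG calls were 0 of 10 in endoderm, 1 of 12 in mesoderm (8.33%, interval 1.49 to 35.4), 4 of 15 in neural (26.7%, interval 10.9 to 52.0) and 1 of 4 in caudal genes (25.0%, interval 4.56 to 69.9). These intervals overlapped, and 3 of the 4 neural CG calls came from Pax7. CHG sites were 5 of 10 in endoderm (interval 23.7 to 76.3) and 2 of 12 in mesoderm (interval 4.70 to 44.8). In neural genes they were 2 of 15 (interval 3.74 to 37.9), and in caudal genes 0 of 4 (interval 0 to 49.0). The CHG intervals overlapped as well, and 3 of the 5 endoderm CHG calls came from Gata4. The base after the cytosine was A at 9 sites (22.0%), C at 12 (29.3%) and T at 14 (34.1%), while over all called cytosines A followed at 32.2%. By lineage A followed at 3 of 10 sites in endoderm, 4 of 12 in mesoderm, 1 of 15 in neural and 1 of 4 in caudal genes. It followed at 0 of the 12 sites of Pax7, and without Pax7 the share in the group was 31.0%. The trinucleotides CTG and CTT were the most frequent, with 6 sites each (14.6%), against 10.4% and 7.50% of all calls. No CpG of the group was called on both strands. Strand gave no pattern, with 21 calls on the plus and 20 on the minus strand. Of the 28 calls at genes of known strand, 14 lay on the strand of the gene.

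Levels ran from 20.6% to 93.8% with a median of 47.2%, against 46.8% over protein-coding genes. The median was 52.4% in replicate 1 and 47.2% in replicate 2. By lineage it was 41.7% in endoderm, 43.8% in mesoderm, 47.5% in neural and 63.9% in caudal genes, the last over 4 sites only. Sites ranged from 23.3% to 93.8% in endoderm, from 24.2% to 93.3% in mesoderm, from 25.0% to 89.2% in neural and from 20.6% to 77.3% in caudal genes. The medians were not tested against each other. A level of at least 80% was reached at 5 of 41 sites (12.2%), against 21.9% over protein-coding genes. These were sites of Gata4, Tbx5 and Lhx2 and 2 of Pax7, and only the CTC site of Pax7 was at such a level in both libraries. By context the median was 54.0% at CG (6 sites), 45.5% at CHG and 50.0% at CHH.

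Over all protein-coding genes, calls were more frequent in longer genes. Of the genes shorter than 10 kb, 9 of 18 lineage regulators held a call, against 24.0% of 7925 protein-coding genes. From 10 to 30 kb it was 1 of 5, against 47.3%, and from 30 to 100 kb 5 of 6, against 66.4%. Across the 30 genes the rank correlation of length and number of calls was 0.317 (Spearman's rho), and across protein-coding genes 0.524. These describe genes in the same pair of libraries and are given without a test. The 9 short genes with a call held 1 or 2 each, and they were Foxa2, Gsc, T, Nkx2-5, Hand2, Sox1, Cdx2, Hoxa9 and Hoxb1.

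**Figure D4:**
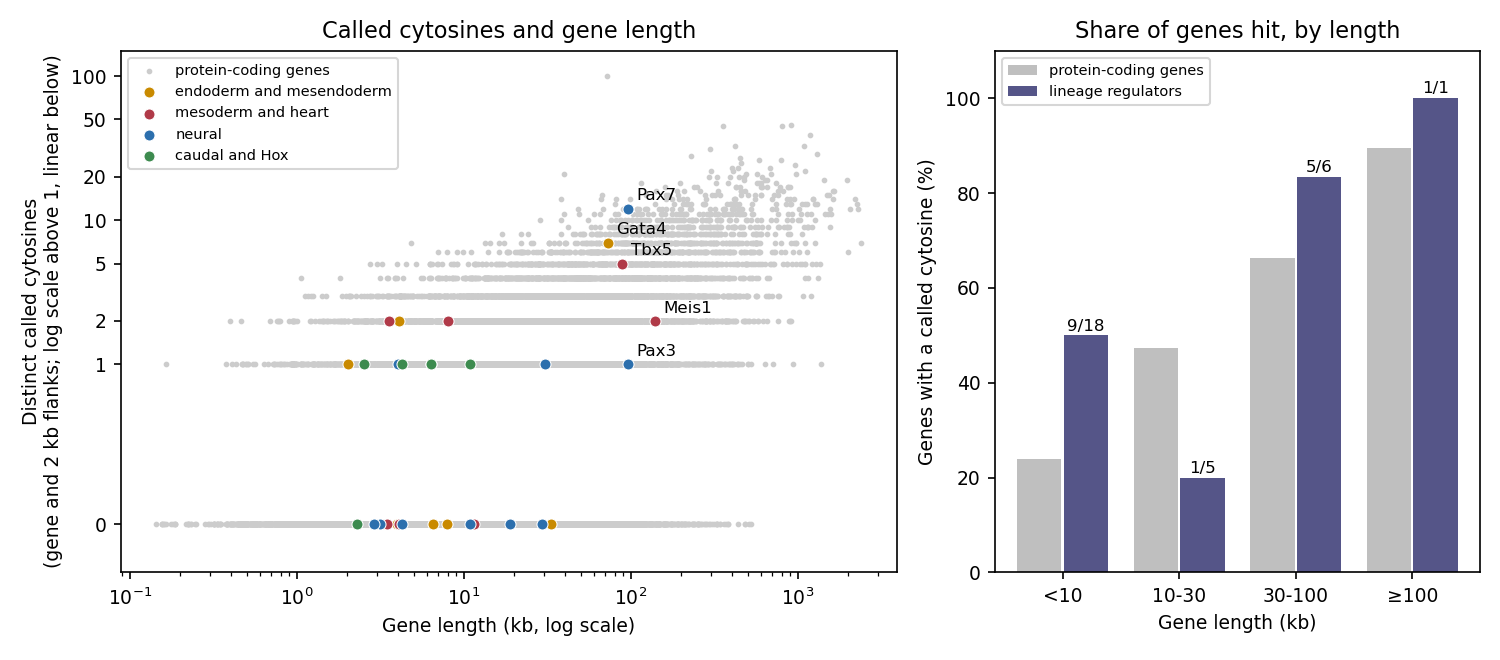
Left, distinct called cytosines against gene length in kb (log scale; the vertical axis is logarithmic above 1 and linear below) for protein-coding genes in grey and the 30 lineage regulators in colour. Right, percentage of genes with a call by length, with counts over the bars of the lineage regulators. Pax7 stands at 12 calls and Pax3, of nearly the same length, at 1.

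A further list of 110 developmental regulators, drawn up by the same lineages and with earlier results of these data known, served for comparison. The list is not fully separate from the members: it includes Hoxd11, so the call counted for Hoxd10 is counted there too. Of the 110 regulators 65 held a call in either library (59.1%, against 47.9% of protein-coding genes), and 29 a cytosine called in both, against 22.2%. They held 6.36 called cytosines per 100 kb, against 2.39. Their median length was 5.70 kb, against 17.2 kb, so these comparisons are not matched for length, and coverage of the genes is not known. The CG share was 20.4% (interval 14.6 to 27.8), against 9.06% over protein-coding genes. That interval counts cytosines of the same gene as independent, and the CG content of these genes was not taken into account. No CG enrichment is therefore read from it. The median level was 45.8%. The comparison is a description, and the lists were not tested against each other. In the list labelled other endoderm 6 of 12 genes held a call, among them the hepatocyte factor gene Hnf4a, with 2 shared cytosines at a median of 92.9%, and Sox7 with 1 shared cytosine. Sox18 and Sox21 were also among the 6, and whether they belong in an endoderm list was not checked. In the other mesoderm list it was 16 of 22, with 3 shared cytosines in the hindlimb gene Tbx4 and 2 each in Foxc1, Gata2 and Tbx1. In the other neural list it was 25 of 39, and Lmx1a, Lmx1b, Pax2 and Pax5 held 2 shared cytosines each. Lmx1b, a LIM homeobox gene of limb and midbrain, and Pax5 held 11 called cytosines each, nearly as many as Pax7. In the other caudal and Hox list it was 18 of 37, with shared cytosines only in Hoxa3 and Hoxa4.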

How the data were processed

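Captured and A3A-deaminated DNA of mESCs was sequenced in 2 libraries. Tools listed, without roles, in the submitters' processing notes are Bismark 0.23.1, Bowtie2 2.4.5, cutadapt 4.1, SAMtools and FastQC 0.11.9, with the mm10 build. Whether duplicates were removed is not stated there. The authors deposited, per the file headers, read counts per cytosine (kept, lost, depth). The authors also deposited p-values with Holm and Benjamini-Hochberg adjusted p-values, and only sites with an adjusted p under 0.05 and at least 30 reads are listed, which leaves out low levels. These p-values match, in both libraries, the point probability of a binomial with a rate of 6.93%.

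Distinct cytosines were joined by chromosome, position and strand, and a level over both libraries is the mean of those that list the site. RefSeq gene spans (GRCm38.p6) were used with 2 kb flanks, and exons and introns were not used here. All 30 members and 110 further regulators matched the gene table by symbol. Listed trinucleotides matched the RefSeq promoter sequences at 1006 of 1006 sites that could be read, so positions are 1-based on this build. Fisher's exact test was fitted over all shared sites and run on simulated counts drawn independently for each library. The real counts were alike beyond sampling noise, so the simulation does not cover their case. Every member with a call is named with its sites, and up to 4 genes of each further list, ranked by shared sites, of which 1 is not reported here. Members and lists were chosen with earlier results of these data known. No label says that the libraries came from separate cultures, so the test compares only the read counts of these libraries. Reads without molecular identifiers are not independent molecules. No member site lay in a 10 kb window with 10 or more calls. Alternatives were a depth of 40, a stricter adjusted p, other flanks, each library alone, shared sites only, other lineage groups, tail probabilities, near-equal partners and, added after the data were seen, leaving out Pax7. Scripts ran under Python 3.11.15 (scipy 1.17.1, pandas 2.3.3, numpy 2.4.6).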

Additional observations from a re-analysis of the deposited data

How the results depend on the processing

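Of 76 alternatives, 53 left a value within its interval or spread, or a count or density within 1.5 times, and 23 moved it. Some of the 53 could not move, such as the endoderm, mesoderm and caudal densities without Pax7, a neural gene. The count of 53 is therefore no measure of robustness. The spread for the median level was the SD of the replicates (3.65 points), taken from the same libraries that were left out in turn. At a depth of at least 40, fewer sites remain by construction: 10 cytosines at 8 genes, 6 of them shared, with 0.631, 1.01 and 0.892 per 100 kb in endoderm, mesoderm and neural genes. With sites called in both libraries only, 11 cytosines at 9 genes remained, with a median level of 52.4% and 1.26, 1.35, 0.892 and 4.32 per 100 kb in endoderm, mesoderm, neural and caudal genes. With flanks of 10 kb, 17 cytosines were shared, and the endoderm and caudal densities were 4.07 and 3.96. Leaving out a replicate gave 25 to 27 cytosines, a median level of 47.2% to 52.4%, and densities of 2.52 to 5.05 in endoderm and 1.78 to 3.57 in neural genes. The neural density was 1.27 without Pax7, which was chosen after seeing the data, and 1.47 with the alternative groups. At an adjusted p under 0.01, 36 cytosines at 15 genes remained. Counting the tail of the binomial in place of the exact count left 16 genes. The number of sites that differ between libraries was 0 with and without adjustment (Fisher's exact test). No paired analysis was possible because the samples form 1 group. At 36 reads, the median depth of member sites in replicate 2, a level of 47.2% had an interval of 32.0 to 63.0.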

Other observations

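Of the 14 lineage regulators without a call, only Olig2, the oligodendrocyte and motor neuron factor gene, had one just beyond the 2 kb flank, a CHH site 2086 bp outside the gene at 48.5% in both libraries. The others had their nearest call farther away. A CHH site 4.50 kb from Isl1, a LIM homeobox gene of motor neurons and heart, stood at 22.6% in both, and a CHG site 6.88 kb from the forebrain gene Otx2 at 84.8% in both. Those nearest to Eomes, at 8.19 kb and 83.6%, and to Sox17, at 12.5 kb and 25.8%, were called in replicate 2 alone. The nearest to Dlx5 was a CG site 14.5 kb away at 39.0% in replicate 1. The neural genes Pax6, Nkx2-2 and Neurog2 had no call within 33.3, 77.3 and 59.1 kb.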
